A study of Mus musculus with 42 samples.

Results

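Trace amine-associated receptors are the smaller of the main receptor families of the mouse olfactory epithelium, and 10 of their genes (Taar2, Taar3, Taar4, Taar5, Taar6, Taar7a, Taar7b, Taar7d, Taar8b and Taar9) were followed here among the 44674 genes of the table. The members were taken by their gene symbols and not by a measured value, though earlier results of these data were known when they were chosen. The main olfactory epithelium was taken from male mice of the C57BL/6NCrl strain, 8 to 12 weeks old, that were exposed for 1 h to no odour (No Odour), to the odour of normal chow (NCD), to that of a bacon-flavoured diet (Bacon) or to that of a high-fat diet (HFD). Each library stands for a pool of 4 epithelia, so differences between single animals cannot be seen. There were 5 pools for No Odour, 6 for NCD, 5 for Bacon and 5 for HFD, and each of the 21 pools gave a Ribo library, the RNA pulled down with an antibody against phosphorylated ribosomal protein S6, and an Input library of the same tissue. No genotype or transgene separated the groups.

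These receptors are G protein-coupled and bind volatile amines, which arise when amino acids are broken down in urine, in spoiled food and in fermenting matter. A sensory neuron as a rule expresses one receptor gene, either a Taar or an odorant receptor (Olfr) gene, and couples it to the olfactory G protein, adenylyl cyclase and a cyclic nucleotide-gated channel. Ribosomal protein S6 is phosphorylated in neurons that have recently been active, so the Ribo/Input ratio of a receptor gene serves as a readout of the activity of the neurons that express it. Among the members, TAAR3 is known to respond to isoamylamine, TAAR4 to phenylethylamine, TAAR5 to trimethylamine and the TAAR7 receptors to tertiary amines.

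All 16 Taar genes of the table lie in 1 cluster on chromosome 10, with the 10 members between chr10:23938572-24109534 (GRCm38, GENCODE M21 annotation). The annotated transcript of each member is its coding sequence plus 3 bases, in a single exon for 9 of them and in 2 exons for Taar2. The 3 Taar7 members are near copies, with 103 of 1077 aligned positions (9.56%) differing among them. The sequences below show what this meant for reads of 75 bases. The stretch where they are most alike is the same in all 3 over a whole read length, and a read from it cannot be placed, but only 3 of the 1003 stretches of 75 bases along the aligned transcripts hold no position that differs among the 3. Taar6 and Taar4, the members that carry most of the results below, are given at the best matching place in their own transcripts. Capitals mark bases that differ from Taar7b.
Taar7b, chr10:24000626-24000700, plus strand: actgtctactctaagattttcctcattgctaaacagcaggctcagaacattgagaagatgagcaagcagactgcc
Taar7a, chr10:23992720-23992794, minus strand: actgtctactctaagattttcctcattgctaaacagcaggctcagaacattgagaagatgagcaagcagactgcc
Taar7d, chr10:24027909-24027983, plus strand: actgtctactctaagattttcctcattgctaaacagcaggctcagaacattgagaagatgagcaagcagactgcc
Taar6, chr10:23984930-23985004, minus strand: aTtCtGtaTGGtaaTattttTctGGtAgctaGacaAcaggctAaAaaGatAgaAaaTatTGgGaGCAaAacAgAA
Taar4, chr10:23961142-23961216, plus strand: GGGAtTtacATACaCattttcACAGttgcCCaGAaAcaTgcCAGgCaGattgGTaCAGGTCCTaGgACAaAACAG
Taar6 matched Taar7b at 46 of these 75 bases and Taar4 at 31.

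The first 75 bases of the coding sequence are where the Taar7 members differ most, at 26 positions. The stretch mainly sets Taar7a apart, which differs from Taar7b at 25 bases, while Taar7d differs from Taar7b at 5.
Taar7b, chr10:23999939-24000013, plus strand: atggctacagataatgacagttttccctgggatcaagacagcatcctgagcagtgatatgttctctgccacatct
Taar7a, chr10:23993407-23993481, minus strand: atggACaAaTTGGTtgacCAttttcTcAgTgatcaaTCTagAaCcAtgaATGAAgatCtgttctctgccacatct
Taar7d, chr10:24027222-24027296, plus strand: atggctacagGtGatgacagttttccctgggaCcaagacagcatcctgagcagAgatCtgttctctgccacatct
Over whole transcripts, 57.3% of the 31-base words of Taar7a, 57.6% of those of Taar7b, 49.3% of those of Taar7d and 68.7% of those of Taar8b also occurred in another Taar gene. In Taar6 the share was 4.17%, in Taar9 0.0983%, and in Taar2, Taar3, Taar4 and Taar5 it was 0. Estimated counts that are not whole numbers, here by more than 0.01, mark reads shared out between genes. Those of Taar7a, Taar7b and Taar7d were not whole in 37, 40 and 34 of 42 libraries, and those of Taar8b in 4, while those of Taar2, Taar3, Taar4, Taar5, Taar6 and Taar9 were whole in every library. The split of reads between Taar7a, Taar7b and Taar7d is therefore uncertain, and so are their single values below.

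The libraries held 24839555 to 36781553 counts each. Annotated ribosomal RNA took 19.2% to 28.1% of the Input counts without odour and 9.38% to 18.9% with an odour, and 11.6% to 23.1% against 8.12% to 17.5% of the Ribo counts. Markers of mature sensory neurons (7 of 7 detected) summed to 14943 to 19057 CPM (counts scaled to library size by TMM factors) in Input and to 16201 to 24791 CPM in Ribo, so the epithelial label was met. Markers of sustentacular cells, the supporting cells of the epithelium (4 of 4 detected), summed to 3841 to 5703 CPM in Input and 976.8 to 2516 CPM in Ribo.

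Taar genes were scarce in this tissue. The 10 members together took 140 to 260 counts of an Input library and 66 to 196 of a Ribo library, which was 0.202% to 0.283% of all Taar and Olfr counts in Input and 0.0795% to 0.188% in Ribo. Counting error is therefore a large part of every value. In Input, per kb of exon, Taar6 came first at 1.51 ± 0.44 CPM per kb (SD, n = 21), followed by Taar4 at 1.09 ± 0.20, Taar7b at 0.878 ± 0.244, Taar7d at 0.822 ± 0.176, Taar7a at 0.499 ± 0.138 and Taar3 at 0.475 ± 0.146. Taar9 (0.336 ± 0.119), Taar2 (0.244 ± 0.107), Taar5 (0.0877 ± 0.0892) and Taar8b (0.0426 ± 0.0491) followed. The order of the means was the same in Ribo, from 0.915 ± 0.282 CPM per kb for Taar6 to 0.0319 ± 0.0478 for Taar8b. Most neighbours in this order were not apart by more than their spread. In Input, only Taar7d from Taar7a and Taar2 from Taar5 were apart by more than the larger SD of the pair, 2 of 9 steps, and in Ribo only Taar7d from Taar7a, 1 of 9. Taar6 was above Taar4 in 17 of 21 Input libraries and in 14 of 21 Ribo libraries.

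**Figure D1:**
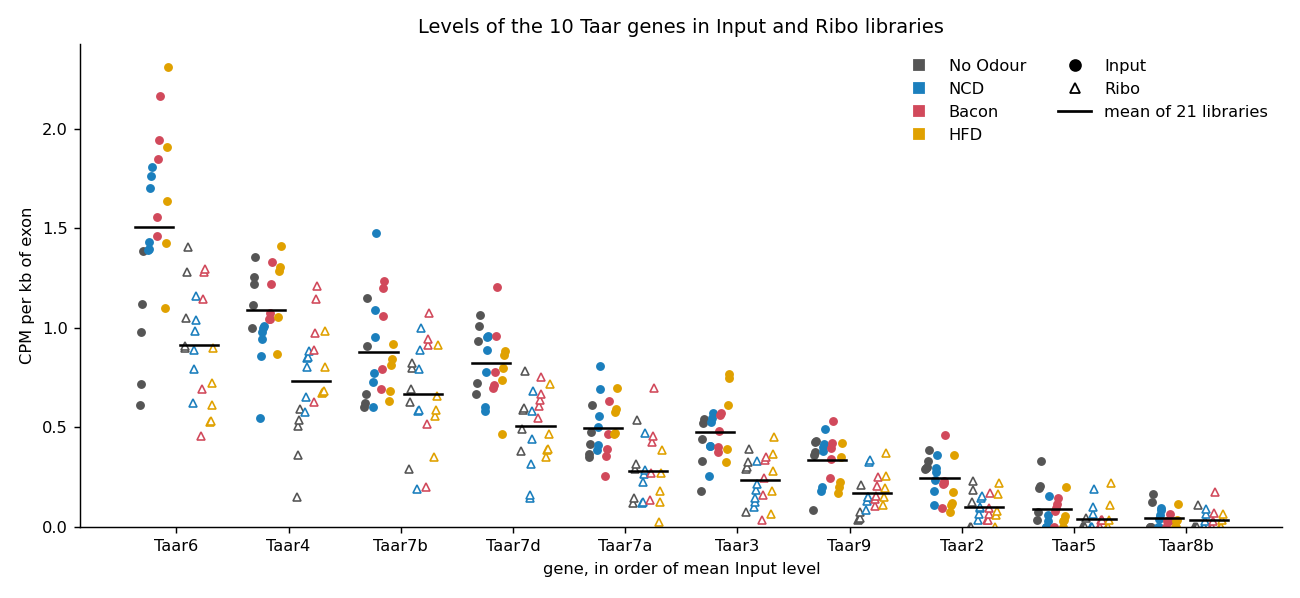
Level of each member in CPM per kb of exon (vertical axis) in the 21 Input libraries (filled circles) and 21 Ribo libraries (open triangles), coloured by odour condition, with the mean of the 21 as a black line. Genes run from Taar6, at a mean of 1.51 CPM per kb in Input, to Taar8b at 0.0426, and the Ribo mean lies below the Input mean for every member.

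Taar5, the trimethylamine receptor, and Taar8b were at the limit of detection. Taar5 had 0 counts in 5 of 21 Input and 11 of 21 Ribo libraries and at most 9 counts, and Taar8b had 0 in 8 and 12 of 21 and at most 5 counts. A count of 0 still allows up to 3 counts. Neither passed the filter on low counts (edgeR's filterByExpr, minimum count 10), so nothing was tested for them. Taar2 had 2 to 16 counts in Input and 0 to 7 in Ribo and passed the filter in Input only. The other 7 members passed in Input and over the Ribo and Input libraries together. All of these but Taar9 also passed in the Ribo libraries alone.

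Of the 6 Taar genes that are not members, Taar1, known from brain and not as an olfactory receptor, had 1 count in 1 Input library and 0 in the other 41 libraries. Taar7e, with 4 to 19 counts in Input, was the only one of the 6 that was tested, and 0 of its 17 comparisons passed an adjusted p under 0.001 in edgeR (lowest 0.0264, for Ribo over Input averaged over the conditions, with a log2 difference of −0.65 ± 0.26). Taar7f had at most 10 counts in a library, Taar8a 3, Taar8c 6 and the pseudogene Taar7c-ps 6, and these 4 share much of their sequence with members.

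The first question was whether Taar transcripts are over- or under-represented on phosphorylated ribosomes. Summed over the 10 members, the log2 Ribo/Input ratio was −1.05 to −0.35 in the 5 No Odour pools, −1.0 to −0.42 in NCD, −0.93 to −0.13 in Bacon and −1.18 to −0.62 in HFD. Summed over the Olfr genes, it was 0.13 to 0.28 without odour, 0.38 to 0.56 in NCD, 0.29 to 0.71 in Bacon and 0.43 to 0.56 in HFD. The Taar sum was below the Olfr sum in 21 of 21 pools, by 0.42 to 1.62 on the log2 scale, and the ranges did not overlap. The Olfr sum covers all 1170 Olfr genes whatever their level, so genes of unlike level are compared here. Gene by gene, the median with the conditions averaged was −0.05 over all Olfr genes tested and −0.21 over those of like Input level.

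Gene by gene, with the 4 conditions averaged, 6 of the 7 members tested were lower in Ribo than in Input at an adjusted p under 0.001, the study's threshold (edgeR quasi-likelihood test, Benjamini-Hochberg adjustment over 21168 genes). This call was made in the lower direction for 33.3% of all genes tested and for 26.4% of the 425 Olfr genes of like Input level. Taar9 was lowest, with a log2 difference of −1.09 ± 0.22 (SE, adjusted p = 7.2e-05). It is among the 6, but it passed the filter in the Input libraries and not in the Ribo libraries alone. A gene kept in this way is more likely to look low in Ribo over Input. Taar3, the isoamylamine receptor, was at −1.03 ± 0.23 (adjusted p = 0.000229). The Taar7 members Taar7a (−0.93 ± 0.21, adjusted p = 0.000295) and Taar7d (−0.72 ± 0.14, adjusted p = 3.74e-05) were also lower. Taar6 was at −0.71 ± 0.13 (adjusted p = 1.59e-05) and Taar4, the phenylethylamine receptor, at −0.65 ± 0.11 (adjusted p = 7.1e-06). Taar7b was at −0.41 ± 0.17, which did not pass (adjusted p = 0.0296). The median over the 7 was −0.72, against −0.21 for the Olfr genes of like Input level (quartiles −0.72 and 0.42) and −0.01 for all genes. The members that failed the filter are not in this median, and no test was made of the family as a whole.

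Pool by pool, the ratio was below 0 in 20 of 21 pools for Taar9, in 19 for Taar3 and Taar7d, in 18 for Taar4, Taar6 and Taar7a and in 14 for Taar7b. In the untested members the sign was carried by few counts. It was below 0 in 19 of 21 pools for Taar2, in 15 for Taar5 and in 9 for Taar8b. With each library's ribosomal RNA share as covariate, 1 of the 6 calls stayed under 0.001 (Taar6, adjusted p = 0.00075), the other 5 had adjusted p of 0.0017 to 0.00982, and the log2 differences of the 7 were −1.22 to −0.40. With a minimum count of 30, Taar3, Taar7a and Taar9 were no longer tested and the count was 3.

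**Figure D2:**
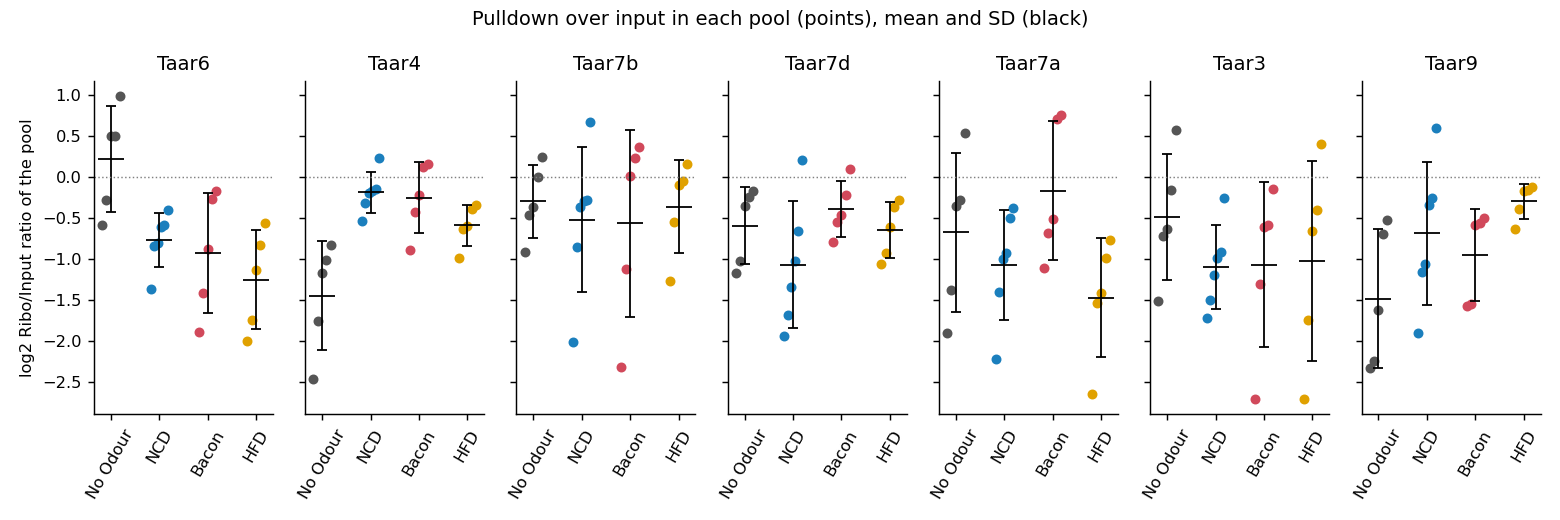
log2 Ribo/Input ratio of each pool (points, vertical axis, prior count 2) for the 7 members tested, by odour condition (5, 6, 5 and 5 pools), with the mean and SD in black and a dotted line at 0. Taar4 without odour, at −2.47 to −0.83, lies below 14 of the 16 odour pools, while Taar6 has its highest ratios, up to 0.99, without odour.

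Without odour the members differed from each other. Taar4 had 13, 14, 4, 10 and 17 counts in the 5 Ribo libraries and 35, 35, 34, 38 and 39 in the matching Input libraries, so all 5 pools were low in Ribo. Its log2 difference was −1.50 ± 0.24 (edgeR, adjusted p = 7.78e-06), and it was the only member called in No Odour, where 16% of all genes tested were called lower. Fitted on the No Odour libraries alone, the adjusted p of Taar4 was 0.00186 and the count of members called was 0. Taar9, with 1, 1, 2, 1 and 7 counts in Ribo and 3, 12, 11, 12 and 12 in Input, had a log2 difference of −2.01 ± 0.51 that missed the threshold (adjusted p = 0.00147). It passed without No Odour replicate 6 (−2.60, adjusted p = 0.000822), the pool with 7 counts in Ribo, and without NCD replicate 4 (−2.01, adjusted p = 0.000972). In other fits that left out a pool, its adjusted p reached 0.0116. As above, Taar9 did not pass the filter in the Ribo libraries alone. Taar6 had 34, 30, 24, 29 and 30 counts in Ribo and 34, 17, 34, 20 and 44 in Input, and its Ribo/Input difference was 0.21 ± 0.27 (adjusted p = 0.52). Of the 7, it alone had a fitted difference above 0 without odour.

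The second question was whether a food odour moved the Ribo/Input ratio of a Taar gene, as a receptor whose neurons respond would do. At an adjusted p under 0.001, edgeR called 0 of the 7 members tested with NCD, Bacon or HFD against No Odour or with the mean of the 3 odours, and DESeq2 with the same design also called 0. Over all genes, 0.524% were called with NCD, 3.78% with Bacon, 1.22% with HFD and 5.47% with the mean of the odours. Unadjusted p values under 0.05 were found for 2, 2, 3 and 3 of the 7, and for 5905, 7114, 6273 and 7821 of all 21168 genes. The 4 comparisons share the same 5 No Odour pools, so a pool that is off there moves all of them together. At the wider threshold of 0.05, only Taar4 and Taar6 were called, in opposite directions. With NCD, Bacon, HFD and the mean of the odours, the calls were 14.3%, 28.6%, 14.3% and 28.6% of the 7. Of all genes, 13.1%, 22.5%, 15.7% and 25.8% passed, so members were called about as often as genes in general.

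Taar4 was the only member called at 0.05 with a higher ratio under food odour. Taar9 had a larger fitted rise with HFD and with the mean of the odours, on low counts and not called (below). The values of Taar4 follow. Its log2 ratios were −0.83, −1.01, −2.47, −1.75 and −1.17 in the No Odour pools. In NCD they were −0.19, −0.53, −0.14, −0.16, −0.31 and 0.23, all above the No Odour pools. In Bacon they were −0.22, 0.13, 0.16, −0.89 and −0.43, and in HFD −0.59, −0.39, −0.34, −0.98 and −0.64, so 1 pool of each overlapped with No Odour. The fitted log2 difference was 1.30 ± 0.32 with NCD (adjusted p = 0.00955) and 1.25 ± 0.33 with Bacon (adjusted p = 0.0069), both past 0.05. With HFD it was 0.88 ± 0.33, which did not pass (adjusted p = 0.0668, and 0.0433 to 0.157 with each pool left out in turn). With the mean of the odours it was 1.14 ± 0.27, a ratio 2.21-fold that without odour (95% interval 0.58 to 1.71 on the log2 scale, adjusted p = 0.00301).

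The Ribo level of Taar4 was 0.448 ± 0.186 CPM without odour (SD, n = 5), 0.804 ± 0.131 in NCD (n = 6), 1.01 ± 0.24 in Bacon (n = 5) and 0.798 ± 0.140 in HFD (n = 5), and 15 of 16 odour libraries were above every No Odour library. The Input level was 1.24 ± 0.14 CPM without odour, 0.929 ± 0.185 in NCD, 1.19 ± 0.13 in Bacon and 1.24 ± 0.23 in HFD, with 5 of 6 NCD libraries below every No Odour library and Bacon and HFD overlapping with No Odour. With NCD, a lower Input as well as a higher Ribo level therefore stood behind the ratio. A fit on the Ribo libraries alone, added after the values were seen, called 0 of 6 members tested at 0.001 in each of the 4 comparisons. It was run in edgeR with no other tool. With NCD, Bacon, HFD and the mean of the odours, 4.11%, 4.22%, 5% and 8.38% of genes were called. The fit gave an unadjusted p under 0.05 for 1, 1, 2 and 1 of the 6, and for 6401, 6184, 6715 and 7542 of all 19765 genes. At 0.05 it called Taar4 in all 4, with log2 differences of 0.83 ± 0.27 (adjusted p = 0.0293), 1.17 ± 0.27 (adjusted p = 0.00366), 0.83 ± 0.27 (adjusted p = 0.0306) and 0.94 ± 0.23 (adjusted p = 0.00374), where 19.8%, 18.1%, 22% and 27.7% of genes were called. Such a fit does not correct for a change of the Input. In the main comparison, leaving out each pool in turn kept Taar4 under 0.05 with NCD, with Bacon and with the mean of the odours (highest adjusted p 0.0294). With ribosomal RNA share as covariate, the adjusted p of Taar4 with Bacon was 0.105.

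Taar6, the most abundant member, had a lower ratio under food odour. The log2 ratios were 0.50, 0.99, −0.28, 0.51 and −0.59 without odour, −0.81, −0.58, −0.61, −0.84, −0.40 and −1.36 in NCD, −0.27, −1.89, −0.88, −1.41 and −0.17 in Bacon, and −1.74, −2.0, −0.82, −0.56 and −1.14 in HFD. All 16 odour pools were below 0, and 11 of 16 were below every No Odour pool. The fitted log2 difference was −1.54 ± 0.38 with HFD (adjusted p = 0.0077), −1.13 ± 0.37 with Bacon (adjusted p = 0.0295) and −1.22 ± 0.31 with the mean of the odours (adjusted p = 0.00446). With NCD it was −1.01 ± 0.36, which did not pass 0.05 (adjusted p = 0.0625, 0.0301 to 0.159 with each pool left out in turn, and 0.0456 in DESeq2). The call with Bacon at 0.05 was lost in 6 of 21 fits that left out a pool (No Odour replicates 1, 2 and 4 and Bacon replicates 2, 3 and 4, highest adjusted p 0.0948), and also with ribosomal RNA share as covariate (adjusted p = 0.182) and with only the No Odour and Bacon libraries in the fit (adjusted p = 0.0824).

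Taar6 had a higher Input level with an odour, a call at 0.05 lost with ribosomal RNA share as covariate (below). It had 34, 17, 34, 20 and 44 counts in the No Odour Input libraries, 48, 55, 38, 72, 48 and 59 in NCD, 58, 65, 76, 73 and 47 in Bacon and 54, 81, 60, 38 and 44 in HFD. In CPM the Input level was 1.00 ± 0.32 without odour, 1.64 ± 0.20 in NCD, 1.86 ± 0.30 in Bacon and 1.74 ± 0.48 in HFD, and 15 of 16 odour libraries were above every No Odour library. The Ribo level was 1.15 ± 0.24, 0.949 ± 0.197, 1.01 ± 0.39 and 0.685 ± 0.162 CPM in the same order, so the groups overlapped in NCD and Bacon, and all 5 HFD libraries were below the No Odour libraries. In the Ribo libraries alone, Taar6 was lower with HFD at 0.05 (−0.75 ± 0.27, adjusted p = 0.0455), and its difference with the mean of the odours was −0.40 ± 0.21 (adjusted p = 0.167).

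**Figure D3:**
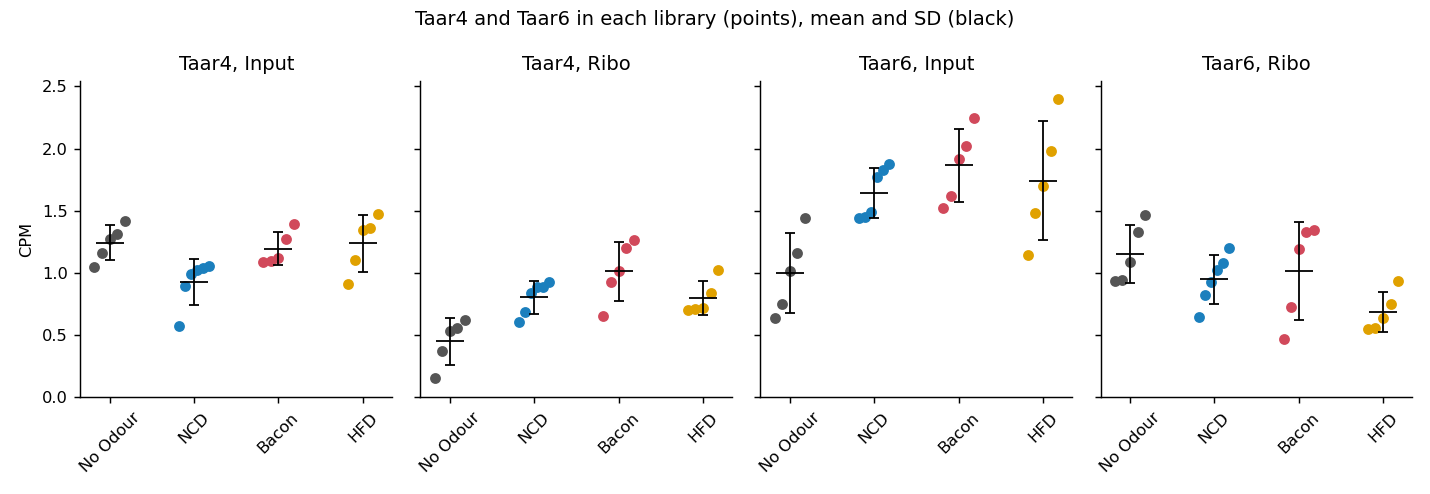
CPM of Taar4 and Taar6 (vertical axis) in each Input and Ribo library (points) by odour condition, with the mean and SD in black. Taar4 has its lowest Ribo levels without odour (mean 0.448 CPM), and Taar6 its lowest Input levels without odour (mean 1.00 CPM).

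Tested over the Input libraries (20451 genes), 0 of the 8 members tested passed 0.001 with any odour against No Odour in edgeR, where 0.998% of genes were called with NCD, 13.7% with Bacon, 0.963% with HFD and 12% with the mean of the odours. Unadjusted p values under 0.05 were found for 2, 1, 2 and 1 of the 8, and for 7297, 9665, 7135 and 9203 of all 20451 genes. DESeq2 called 1 member, Taar6, with Bacon (adjusted p = 0.000199) and with the mean of the odours (adjusted p = 9.82e-05). The shares of all genes in DESeq2 are not given here, and 1 of 8 is near the edgeR shares of 13.7% and 12%. At 0.05, which 23.5%, 39.8%, 21.7% and 37.2% of genes passed, Taar6 was the only member called. This was 12.5% of the 8 in each comparison, a lower share than that of all genes. Taar6 was higher in all 4, by 0.70 ± 0.20 with NCD (adjusted p = 0.0144), 0.89 ± 0.21 with Bacon (adjusted p = 0.00141), 0.78 ± 0.21 with HFD (adjusted p = 0.0101) and 0.79 ± 0.18, or 1.73-fold, with the mean of the odours (adjusted p = 0.00103). In bulk tissue, more cells that express a gene and more RNA per cell cannot be told apart. The ribosomal RNA share of the Input was higher in every No Odour library than in every odour library, so it cannot be told apart from the odour groups. With that share as a covariate, the log2 difference of Taar6 with the mean of the odours was 0.17 (adjusted p = 0.94), and the call was lost with each odour. The call with HFD was also lost with only the No Odour and HFD libraries in the fit (0.78, adjusted p = 0.0797).

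None of the other members was called in Input. With the mean of the odours, Taar3 differed by 0.29 ± 0.25, Taar7a by 0.19 ± 0.22, Taar7b by 0.19 ± 0.20, Taar9 by 0.00 ± 0.31, Taar7d by −0.13 ± 0.18, Taar4 by −0.16 ± 0.14 and Taar2 by −0.57 ± 0.32 on the log2 scale, and 0 of these 7 passed 0.05 (edgeR, with 0 at an unadjusted p under 0.05). The lowest adjusted p among these members was 0.0849, for Taar4 with NCD (−0.42 ± 0.17). Taar2 with HFD was at −0.93 ± 0.41 (adjusted p = 0.11), on counts of 2, 6, 4, 4 and 11 against 10, 8, 9, 9 and 12. Without HFD replicate 6, the pool with 11 counts, it was −1.39 and passed 0.05 (adjusted p = 0.0212). In other fits that left out a pool, its adjusted p reached 0.217. The sparse members were measured with little precision, and their 95% intervals with the mean of the odours reached from −1.22 to 0.09 for Taar2 and from −0.63 to 0.64 for Taar9.

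The remaining members showed no called change of the Ribo/Input ratio. With the mean of the odours, Taar9 differed by 1.23 ± 0.57 (adjusted p = 0.116), Taar3 by −0.64 ± 0.55 (adjusted p = 0.44), Taar7a by −0.28 ± 0.51 (adjusted p = 0.744), Taar7b by −0.15 ± 0.41 (adjusted p = 0.837) and Taar7d by −0.10 ± 0.32 (adjusted p = 0.86). Taar9 had its largest value with HFD, 1.65 ± 0.67 (adjusted p = 0.0951). Its 5 HFD pools had log2 ratios of −0.16, −0.12, −0.39, −0.63 and −0.16, against −0.52, −2.24, −1.62, −2.32 and −0.69 without odour, so 4 of the 5 HFD pools were above every No Odour pool. Without No Odour replicate 6, Taar9 passed 0.05 with HFD (2.24, adjusted p = 0.0447) and with the mean of the odours (1.82, adjusted p = 0.0488). In other fits that left out a pool, its adjusted p reached 0.232 with HFD and 0.316 with the mean of the odours.

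Set beside the Olfr genes of like Input level, the Taar genes did not share one direction. With the mean of the odours, 5 of the 7 members had a log2 difference below 0 and 2 above, and the median was −0.15 (quartiles −0.46 and 0.52). Of the 425 Olfr genes, 108 were below 0 and 317 above, with a median of 0.33 (quartiles −0.02 and 0.68), and 51 were called higher and 2 lower at 0.05. The median over all genes was −0.01. Scaling by the receptor genes alone moved the median of all genes in this comparison to −0.26. Relative to the receptors as a whole, Taar4 was then at 0.90 (adjusted p = 0.00898), and Taar6 at −1.48 passed 0.001 (adjusted p = 0.000446). The share of all genes called with this scaling is not given here, and with the main scaling it was 5.47%.

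**Figure D4:**
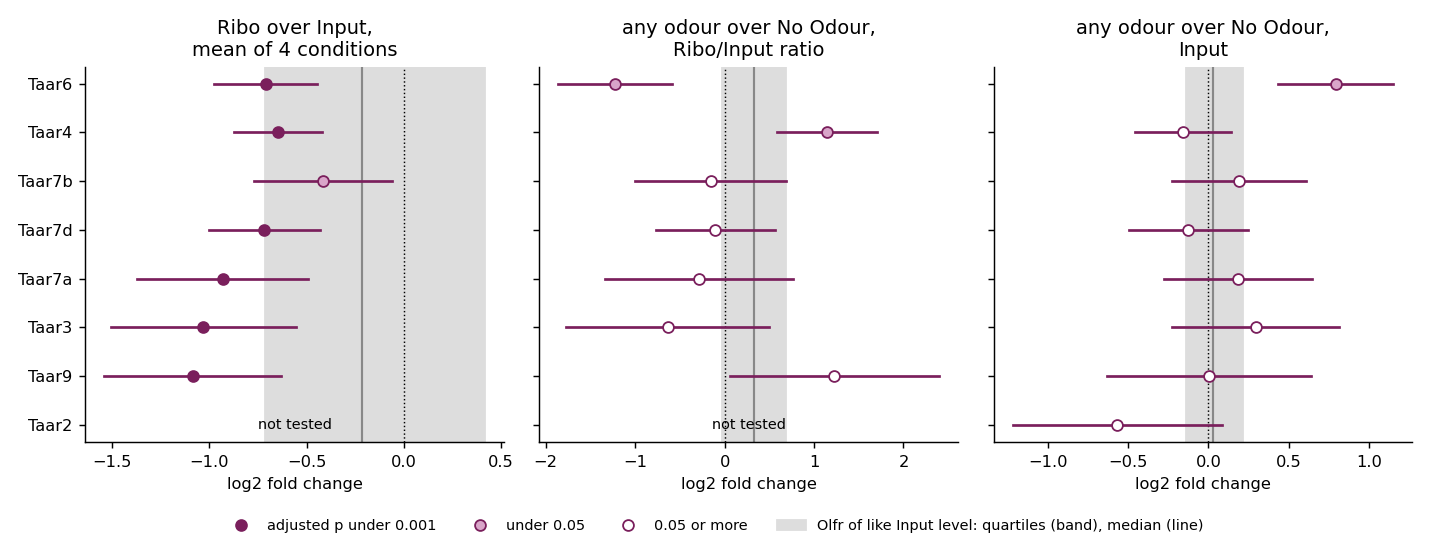
Fitted log2 fold change of each member (points) with its 95% interval (lines) for Ribo over Input averaged over the 4 conditions, for the Ribo/Input ratio with any odour over No Odour, and for the Input level with any odour over No Odour. The grey band spans the quartiles of the 425 Olfr genes of like Input level and the grey line is their median. On the left all 7 members tested lie below that median, and in the middle panel Taar4 (1.14) and Taar6 (−1.22) lie on opposite sides of the band.

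The odours were also compared directly. Between Bacon and NCD, HFD and NCD, and HFD and Bacon, edgeR and DESeq2 each called 0 of 7 at 0.001. Of all genes, 0.00945%, 0.0236% and 0.0378% were called. In edgeR, an unadjusted p under 0.05 was found for 1533, 979 and 1693 of all 21168 genes, and for 0, 0 and 1 of the members. The 1 was Taar7a, at −1.53 ± 0.62 for HFD against Bacon (unadjusted p = 0.0197, adjusted p = 0.53). It had 26, 8, 4, 15 and 14 counts in the Bacon Ribo libraries and 6, 1, 4, 11 and 10 in those of HFD, ranges that overlapped. For Taar4 the intervals of the differences between odours were −0.67 to 0.56 (Bacon against NCD), −1.04 to 0.20 (HFD against NCD) and −1.0 to 0.27 (HFD against Bacon) on the log2 scale, so differences within these limits could not be detected here.

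Because reads of the Taar7 genes cannot be placed with certainty, their sum was also followed. The sum covered Taar7a, Taar7b and Taar7d and also Taar7e and Taar7f, which are not members. Together they had 64 to 133 counts in Input and 26 to 113 in Ribo. The summed log2 Ribo/Input ratio was −0.42 ± 0.19 without odour (SD, n = 5), −0.72 ± 0.49 in NCD (n = 6), −0.41 ± 0.59 in Bacon (n = 5) and −0.74 ± 0.33 in HFD (n = 5). The pools of the 4 groups overlapped. The summed Input level was 2.74 ± 0.39, 2.95 ± 0.52, 2.91 ± 0.37 and 2.77 ± 0.29 CPM in the same order, again with overlap.

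Genes that act with these receptors were followed by lists. Of 14 genes for transduction downstream of olfactory receptors, 11 were higher and 2 lower in Ribo than in Input with the conditions averaged (adjusted p under 0.001, edgeR), where 34% of all genes were called higher. The channel subunit Cnga2 was at 0.83 ± 0.03, the adenylyl cyclase Adcy3 at 0.68 ± 0.03, the chloride channel Ano2 at 0.52 ± 0.03, and Gnal, which encodes the olfactory G protein alpha subunit, at −0.40 ± 0.03 on the log2 scale. Of 12 activity-dependent genes 11 were higher and 0 lower, among them Nr4a1 (1.53 ± 0.04) and Kirrel2 (1.27 ± 0.04). Of 9 genes of receptor choice and trafficking 5 were higher, led by the transcription factor Lhx2 (1.41 ± 0.04), and 3 lower.

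Genes of amine metabolism, which break down or modify amines, were mostly lower in Ribo. Of 12, 0 were higher and 9 lower, where 33.3% of all genes were called lower, including the flavin-containing monooxygenase Fmo2 (−1.82 ± 0.09), the amine oxidase Aoc3 (−1.76 ± 0.10) and the monoamine oxidase Maoa (−0.54 ± 0.04). Markers of sustentacular cells were lower in 4 of 4 (median −1.90, against the same 33.3%), and whether they bear on the amine genes was not tested. With any odour against No Odour, edgeR called 0 of the 12 amine genes at 0.001 in the Ribo/Input ratio, in Input or in Ribo. Of all genes, 5.47%, 12% and 8.38% were called there. An unadjusted p under 0.05 was found for 4, 4 and 5 of the 12, and for 7821 of 21168, 9203 of 20451 and 7542 of 19765 genes.

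Activity-dependent genes differed with odour. With the mean of the odours, 8 of 12 were higher and 1 lower in Input at 0.001, where 12% of all genes were called in either direction, with Egr1 at 0.86 ± 0.05, Fos at 1.54 ± 0.09 and Nr4a1 at 1.27 ± 0.08. In the Ribo/Input ratio, where 5.47% of all genes were called, 1 was higher, S100a5 (0.97 ± 0.14), and 1 lower, Arc (−0.96 ± 0.16). Of the transduction genes, Omp (0.49 ± 0.08) and Gng13 (1.03 ± 0.19) were higher in that ratio. Gng13 was lower in Input (−0.82 ± 0.17), and neither was called in Ribo alone. The summed mature neuron markers in Ribo ranged from 16201 to 19726 CPM without odour and from 17925 to 24791 CPM with an odour. Whether these marker levels bear on the ratio of Taar4 was not tested.

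Members were also compared from pool to pool, as a description. Over 21 pools, Spearman's correlation of the log2 Ribo/Input ratio between 2 members ranged from −0.62 to 0.39 over 21 pairs of the 7 tested (median −0.05), and that of the Input level from −0.38 to 0.28 (median −0.06). The lowest, Taar9 with Taar6, had counts below 21 in Taar9 in every library. Among 21160 genes, those whose ratio followed the summed Taar ratio most closely were Tuft1 (0.74), Dnm1l (0.74), Mdga2 (0.74), Olfr55 (0.73) and Gm37510 (0.71). For the Input level they were Clk2, Npc1, Rhbdl3 and Slc37a3 (each 0.80) and Ocel1 (0.79). The best of so many correlations over 21 pools is high by selection, and the pools share odour group and library depth.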

How the data were processed

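RNA of Ribo and Input libraries from 21 pools of mouse olfactory epithelium (42 libraries) was sequenced by the authors as paired reads and quantified with Salmon in the nf-core rnaseq pipeline against GRCm38. The deposited table holds their estimated counts per gene, not normalised, of which 30.9% are not whole, since reads that match several genes are shared out. This affects near copies such as Taar7a, Taar7b and Taar7d. The authors used DESeq2 1.26 per the labels.

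Estimated counts were rounded to whole numbers and tested with edgeR 4.0.16 (limma 3.58.1, R 4.3.3) by the quasi-likelihood test with TMM normalisation, filterByExpr at a minimum count of 10 and Benjamini-Hochberg adjustment over all genes tested. Ribo/Input comparisons had a term for each pool and a Ribo term for each condition, and Input comparisons a term for each condition, with all conditions in the fit. Calls were made at an adjusted p under 0.001, with 0.05 as an alternative. Fold changes are log2, errors are SE for fits and SD over pools for levels, and log2 ratios of single pools used a prior count of 2. Olfr genes of like Input level were the 425 tested with a mean log2 Input CPM between −1.34 and 0.64, the range of the tested members. No pair of libraries of one group agreed within sampling noise (90 pairs compared, with a chi-square of at least 3.33 for each degree of freedom). As pools are the samples, p-values measure the spread between pools.

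Each member was named in each comparison, list genes by smallest p (up to 4 for a list, with 1 gene not reported here), and the 5 genes most correlated with the summed Taar level or ratio. The members and lists were chosen with earlier results of these data known. Alternatives were DESeq2 1.42.0 with the same design, its size factors, other filters, scaling by receptor genes, ribosomal RNA share as a covariate, no pool term, only the groups compared, a replicate block, other prior counts, each pool left out, and Ribo libraries alone, the last chosen after seeing the data. The fits were tested on simulated data.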

Additional observations from a re-analysis of the deposited data

Results flagged for a closer look

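Among 96 groups of 5 or 6 libraries or pools checked for a member's level, ratio or sum, 3 held a library far from the others by Dixon's test, where chance gives about 1 in 20. The Input level of Taar4 in NCD replicate 6 was 0.569 CPM, against 0.897 to 1.05 in the other NCD libraries. The Input level of Taar9 in No Odour replicate 1 was 0.0896 CPM, against 0.376 to 0.450 in the others, on 3 counts. The Ribo level of Taar9 in No Odour replicate 6 was 0.218 CPM, against 0.0375 to 0.0788 in the others, on 7 counts.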

How the results depend on the processing

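No result changed direction past its threshold under any alternative run. At an adjusted p under 0.05 in place of 0.001, the members called were 2 in place of 1 for Ribo over Input without odour, 1, 2, 1 and 2 in place of 0 for the ratio with NCD, Bacon, HFD and the mean of the odours, and 1 in place of 0 for Input in each of these. Of all genes, 59.5% passed 0.05 for Ribo over Input without odour and 81% with the conditions averaged. The other shares at 0.05 are given above. For the other settings below, the shares of all genes called are not given here. For Input, DESeq2 with the same design called 1 member with Bacon and 1 with the mean of the odours, and a fit with no filter beyond 1 count called 1 with the mean of the odours. For Ribo over Input averaged over the conditions, the count of 6 was 7 at 0.05, 7 with no filter beyond 1 count, 3 with a minimum count of 30, where fewer members were tested, and 1 with ribosomal RNA share as covariate. Receptor-only scaling called 1 in the ratio with the mean of the odours. Without odour, 2 were called with no term for the pool and 0 with only the No Odour libraries. The cause was not tested. Leaving out each pool in turn gave 6 to 7 calls averaged over the conditions, the added call being a member that the filter had kept out, 1 to 2 calls without odour (2 without No Odour replicate 6 or NCD replicate 4), 0 to 1 for Input with Bacon (1 without No Odour replicate 6, HFD replicate 2 or HFD replicate 5) and 0 to 1 for Input with the mean of the odours (1 without No Odour replicate 6, HFD replicate 5 or HFD replicate 6).

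Replicate numbers are shared between conditions, but same-numbered pools did not deviate together (27 pairs, correlation −0.21 to 0.11, median 0.02, 3 over 0.1). The Ribo and Input libraries of a pool also showed little shared deviation (21 pools, correlation −0.08 to 0.21, median 0.01, 1 over 0.1). With the replicate block, 5 members in place of 6 were called for Ribo over Input averaged over the conditions, and Taar7a, at −0.92, had an adjusted p of 0.00114. The other counts of members called were the same. The low counts of these genes, at most 81 in a library, limit what could be detected.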
